A study of Rattus norvegicus with 8 samples.

Results

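Mitochondrial fusion, fission and transport genes were described in the thyroarytenoid (TA) muscle, the vocal fold muscle of the larynx, of male Long Evans rats at 8 months of age. The 10 genes named for this purpose were Mfn1, Mfn2 and Opa1 for fusion, Oma1 and Yme1l1 for processing of the inner membrane, Dnm1l, Fis1 and Mff for fission, and Rhot1 and Rhot2 for transport. Each was taken from the deposited gene table by its symbol, with the entry of the highest average level where a symbol stood on more than 1 entry. Of the 10 genes, 8 had an entry among 14016 in all, each on a single entry, and Mfn2 and Yme1l1 had none under those symbols.

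RNA was sequenced from 8 samples, 4 of them Pink1-/- rats, which lack the mitochondrial kinase PINK1, and 4 wildtype (WT) rats. The labels name no promoter, Cre line or treatment for any sample. They do not say whether samples of the same genotype came from separate litters. The deposited table compares Pink1-/- with WT and holds 0 columns of values per rat. The level of each gene is therefore the authors' average over samples, in log2 CPM (read counts scaled to a fixed library total), with no spread between rats and no test between genotypes. Which libraries entered that average is not stated. The fold changes and p-values in the table are the authors' own comparison and were not used here, so nothing below says whether a gene was higher or lower in Pink1-/- rats.

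Mitochondria constantly join and divide. Mitofusins merge the outer membranes of neighbouring mitochondria and OPA1 merges the inner membranes, while the dynamin DRP1, encoded by Dnm1l, assembles around the organelle and pinches it apart. Miro proteins, encoded by Rhot1 and Rhot2, tie mitochondria to motor proteins. In mammalian cells, PINK1 accumulates on damaged mitochondria and activates the ubiquitin ligase Parkin, which tags mitofusins and Miro among other outer membrane proteins.

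The markers of skeletal muscle were high in the table, and markers of other laryngeal tissues were present. Its entries ran from -1.34 to 18.20 average log2 CPM, with a median of 3.14 and quartiles of 1.73 and 4.49. Of 12 skeletal muscle fiber markers 9 had an entry, at a median average log2 CPM of 10.71, and the highest was the fast myosin gene Myh4 at 14.75. The slow fiber genes Myh7 and Tnni1 were at 4.20 and 1.77 average log2 CPM. The highest markers of other tissues and cell types were Muc5b of airway glands at 11.74, Dcn of fibroblasts at 9.34, the hemoglobin gene Hba-a2 at 9.24 and Krt4 of squamous epithelium at 8.18 average log2 CPM. Tg of thyroid was at 6.24, Cdh5 of endothelium at 6.02, Ptprc of leukocytes at 3.41, Acan of cartilage at 2.11 and Adipoq of adipocytes at 1.87 average log2 CPM. The genes described here are active in most cell types, and the share of each gene's reads that came from muscle fibers was not tested. In a bulk sample such as these, fewer cells of a type and less RNA per cell cannot be told apart. Pink1 itself was at 7.49 average log2 CPM. The libraries in this average are not stated, and an average over both genotypes cannot check the labels.

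All 8 measured genes lay above the median of the table, and 6 of the 8 lay above its upper quartile of 4.49. Their median was 5.46 average log2 CPM, and their summed average CPM was 353.7, or 0.0348% of the summed CPM of the table. CPM counts reads and not molecules, and a long transcript gives more reads than a short one at the same number of molecules. Transcript lengths matching the authors' annotation were not given, so a position in the table is one by reads drawn, and no order of transcript abundance was made.

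**Figure D1:**
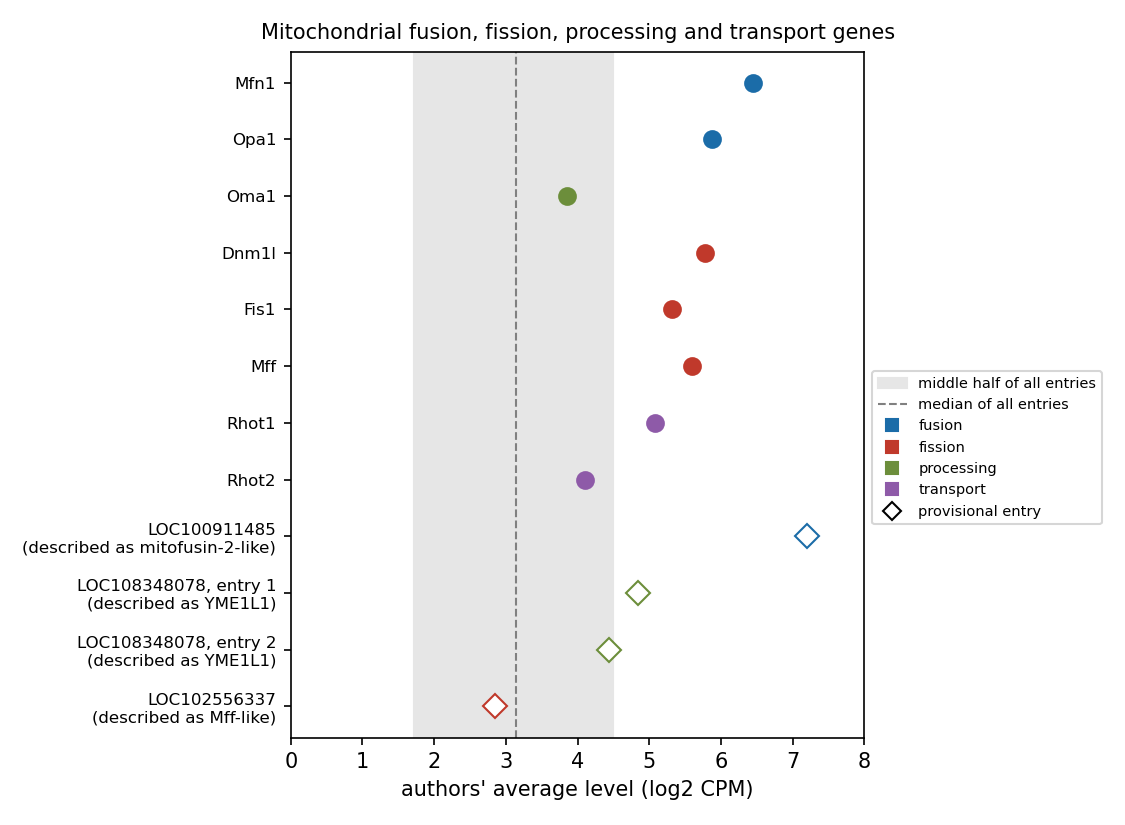
Authors' average level of each gene in log2 CPM (x axis) for the 8 genes with an entry (filled circles, colored by role) and 4 entries under provisional symbols (open diamonds), with no error bars for want of single-rat values. The gray band spans the quartiles of all 14016 entries and the dashed line their median of 3.14, and the 8 genes sit between 3.86 and 6.44.

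Among the fusion genes, Mfn1, a mitofusin of the outer membrane, was at 6.44 average log2 CPM (87.0 CPM), more than 95.0% of all entries. Opa1, the dynamin-like GTPase that fuses inner membranes and shapes cristae, was at 5.87 average log2 CPM (58.5 CPM), more than 91.4% of entries. Reads for both were thus well represented. Mfn2, the other mitofusin, which also tethers mitochondria to the endoplasmic reticulum, had no entry under its symbol. An entry with the provisional symbol LOC100911485 (ENSRNOG00000046424), described in the table as mitofusin-2-like, was at 7.20 average log2 CPM (146.6 CPM), more than 97.4% of entries. It drew more reads than Mfn1 did. That entry was noticed after its value was seen, and whether its reads are those of Mfn2 was not tested.

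Of the OPA1 proteases Oma1 and Yme1l1, only Oma1 had an entry under its symbol. Oma1, a protease of the inner membrane that is activated when the membrane potential falls, was at 3.86 average log2 CPM (14.5 CPM), more than 64.2% of entries. Its average CPM was the lowest of the 8 genes. Yme1l1, an ATP-dependent protease that also cuts OPA1, had no entry under its symbol. A pair of entries with the provisional symbol LOC108348078, both described as the ATP-dependent zinc metalloprotease YME1L1, were at 4.84 average log2 CPM (28.7 CPM, ENSRNOG00000017100) and 4.44 average log2 CPM (21.7 CPM, ENSRNOG00000055012). Entries that share a product name may share reads that the counting splits, which leaves both values uncertain.

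The fission genes lay close together by reads drawn, which were not corrected for transcript length. Dnm1l, the dynamin that constricts the organelle, was at 5.77 average log2 CPM (54.7 CPM), more than 90.6% of entries. Mff, the outer membrane receptor that recruits DRP1, was at 5.59 average log2 CPM (48.2 CPM), more than 89.1% of entries. Fis1, another outer membrane protein that can bind DRP1, was at 5.32 average log2 CPM (39.9 CPM), more than 86.5% of entries. The 3 genes spanned 0.45 on the log2 scale, a distance that cannot be set against a spread between rats. An entry described as mitochondrial fission factor-like, LOC102556337 (ENSRNOG00000048016), was at 2.85 average log2 CPM (7.22 CPM). If its reads belonged to Mff, the sum would be 5.79 average log2 CPM for Mff.

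The transport genes differed from each other by 0.98 on the log2 scale of reads. Rhot1, encoding Miro1, the outer membrane GTPase that links mitochondria to kinesin through the TRAK adaptors, was at 5.08 average log2 CPM (33.7 CPM), more than 83.6% of entries. Rhot2, encoding its paralog Miro2, was at 4.10 average log2 CPM (17.1 CPM), more than 68.3% of entries. Both were measured above the median of the table, and whether their difference in reads follows transcript length was not tested.

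Base composition was taken from RefSeq promoter windows of the assembly GRCr8. The 250 bases before each start site were read for all 33465 windows held in the reference table, of which 11088 belong to genes with an entry. Of the 10 members 9 had a window, with a pair of windows for Fis1 and none for Mfn2, which gave 10 windows. The Rhot1 window held 27 CpG dinucleotides and the Rhot2 window held 1. Whether transcripts in TA muscle begin at these start sites was not tested. Among windows of genes with an entry the median was 15, 15.4% held at least as many as Rhot1, and 3.91% held no more than 1. The windows of these paralogs are shown because they are the extremes among the members, with each CpG in capitals, 5′ to 3′ on the strand of the gene. Rhot1 is at chr10:65696372-65696621 on the plus strand and Rhot2 at chr10:15369264-15369513 on the minus strand, both on GRCr8, and the authors' build is not known.
Rhot1: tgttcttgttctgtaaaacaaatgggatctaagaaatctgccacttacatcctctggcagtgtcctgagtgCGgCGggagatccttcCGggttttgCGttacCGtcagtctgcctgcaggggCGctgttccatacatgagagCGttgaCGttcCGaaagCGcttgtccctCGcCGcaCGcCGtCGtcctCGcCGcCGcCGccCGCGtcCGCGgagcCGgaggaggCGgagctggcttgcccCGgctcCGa
Rhot2: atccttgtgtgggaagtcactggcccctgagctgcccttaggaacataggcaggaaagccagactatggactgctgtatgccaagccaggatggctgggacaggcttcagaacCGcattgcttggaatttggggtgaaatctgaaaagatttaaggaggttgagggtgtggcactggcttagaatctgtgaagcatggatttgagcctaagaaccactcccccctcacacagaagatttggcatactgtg

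Of the 27 CpGs of Rhot1, 21 lay in the 125 bases nearest the start site, at the right end of its window, while the only CpG of Rhot2 began at position -137 from it. The remaining windows held between 5 and 20 CpGs, with 17 in Opa1 and in Yme1l1, 11 in Oma1 and in Mff, 10 in Dnm1l, 8 in Mfn1, and 20 and 5 in the Fis1 windows. Over the 10 windows the median was 11, beside 15 for genes with an entry and 5 for all windows. GC content ran from 41.6% in Mff to 65.2% in the first Fis1 window. Its median was 50.2%, beside 59.6% for genes with an entry and 51.2% for all windows. CpG content varied widely among these genes, and it was not compared with their levels by a test.

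**Figure D2:**
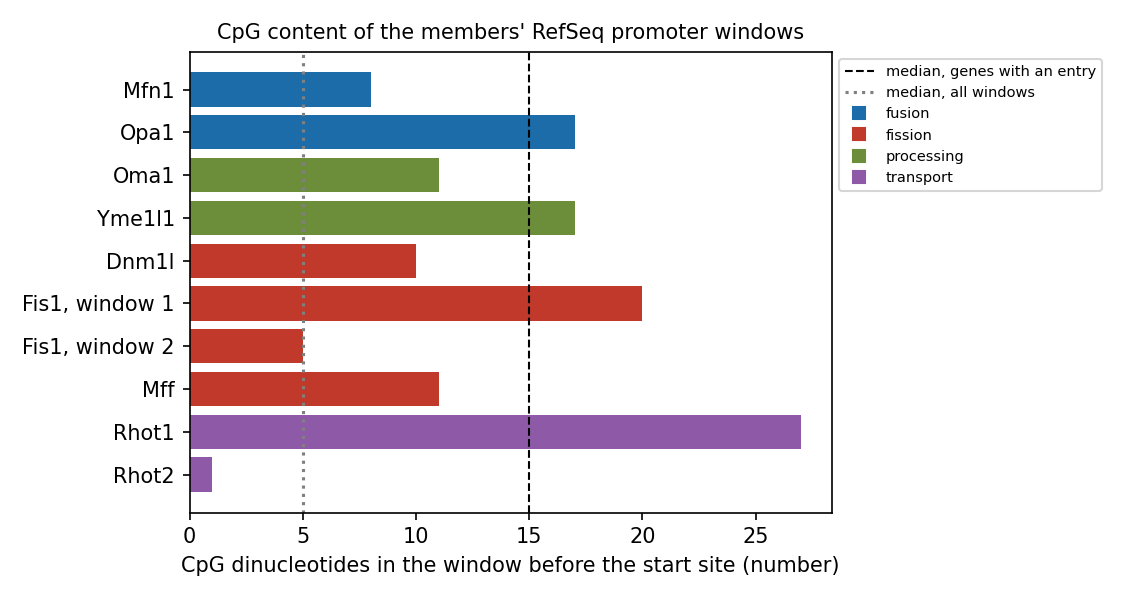
Number of CpG dinucleotides (x axis) in the 250 bases before the start site for each RefSeq window of the members, colored by role, with a pair of windows for Fis1. The dashed line marks the median of 15 over windows of genes with an entry and the dotted line the median of 5 over all windows, and Rhot1 at 27 and Rhot2 at 1 are the extremes.

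Short motifs were counted in the same windows on both strands, with letters that do not contain one another. The GC box GGGCGG, which binds SP1, occurred in 8 of 10 windows, in all but Dnm1l and Rhot2, beside 56.2% of windows of genes with an entry and 30.5% of all windows. CCGGAAG, the core bound by ETS factors, occurred in 3 of 10, beside 13.5% of windows of genes with an entry and 7.27% of all windows, and the Yme1l1 window held 3 copies on its own strand. The CCAAT box occurred in 4 of 10, beside 34.5% of windows of genes with an entry and 34.0% of all windows. TATAAA occurred in 2 of 10, Dnm1l and Mff, beside 7.02% of windows of genes with an entry and 12.9% of all windows. The Dnm1l match lay on the opposite strand at position -203 from the start site. The Mff match lay on the gene's own strand at position -127. Matches to CGCATGCG of NRF1, AAGGTCA of estrogen-related receptors, TGACGTCA of CREB and AAGATGGCG of YY1 numbered 0 of 10 each, beside 2.99%, 2.54%, 2.69% and 1.23% of windows of genes with an entry and 1.47%, 3.99%, 1.59% and 0.693% of all windows. A match is a run of letters and not a bound site.

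Partners of the measured genes were represented at a wide range of levels. Of 44 other genes of mitochondrial dynamics, 41 had an entry, with Pld6, Snph and Armcx10 absent under those symbols. Their median was 4.42 average log2 CPM, and 32 of the 41 lay above the median of the table. At or above the members' median of 5.46 were 13 of the 41. That level lies between Fis1 and Mff, which exceeded 86.5% and 89.1% of all entries. These too are positions by reads and not by molecules.

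**Figure D3:**
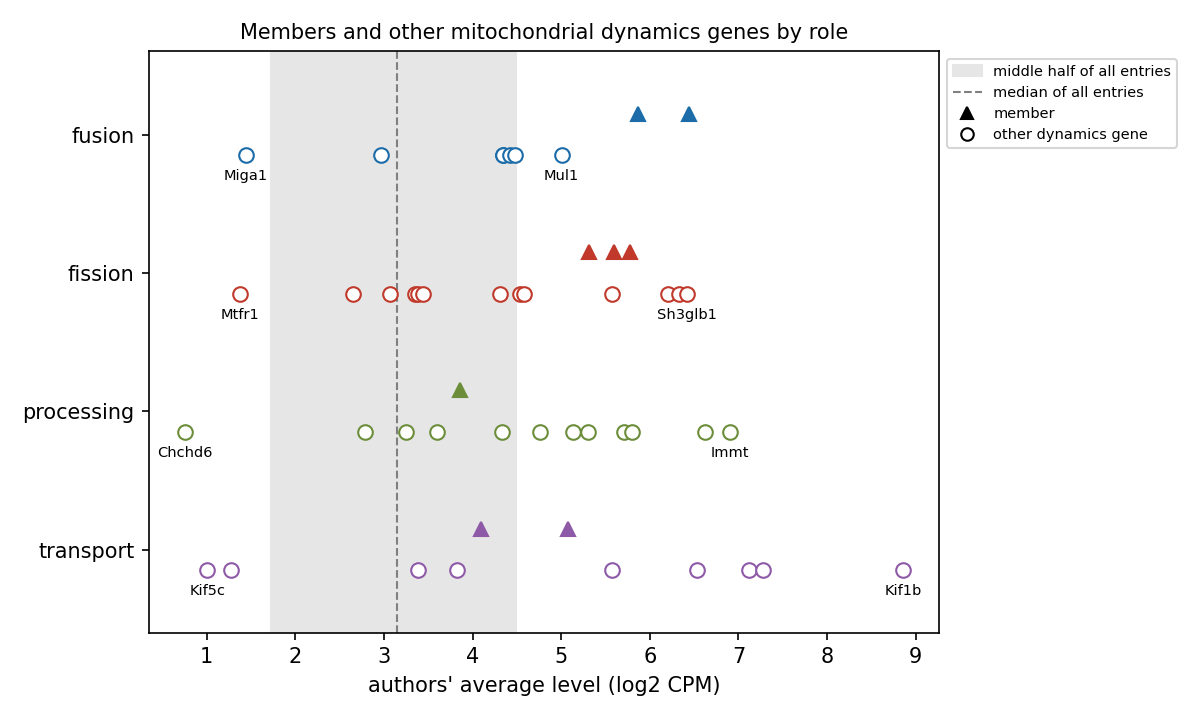
Authors' average level in log2 CPM (x axis) of the members (filled triangles) and of 41 other mitochondrial dynamics genes (open circles) in each of 4 roles, with the lowest and the highest of the others named and no error bars for want of single-rat values. The other genes run from 0.76 for Chchd6 to 8.86 for Kif1b, and the other genes of fusion and its regulation all lie below the fusion members.

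The adaptors of Miro drew many reads. Trak1 and Trak2, which join Miro to kinesin and dynein, were at 7.27 and 7.12 average log2 CPM (154.8 and 138.9 CPM), more than 97.5% and 97.2% of entries. Of 11 other transport genes 9 had an entry, with a median of 5.58, from 1.01 for the neuronal kinesin gene Kif5c to 8.86 for Kif1b, a kinesin that carries mitochondria and synaptic vesicle precursors in nerve cells. The Rhot1 and Rhot2 entries were both lower by reads than the TRAK entries.

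The other DRP1 receptors, Mief1 and Mief2, which encode the outer membrane proteins MiD51 and MiD49, were at 4.53 and 4.58 average log2 CPM (23.2 and 23.9 CPM). Gdap1, an outer membrane protein of fission that is mutated in an inherited neuropathy, was at 2.65 average log2 CPM. The 13 other fission genes had a median of 4.31, from 1.37 for Mtfr1 to 6.42 for Sh3glb1, which encodes endophilin B1. Of these 13, 4 were at or above the members' median.

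Of 8 other genes of fusion and its regulation, 7 had an entry, with a median of 4.34 average log2 CPM. The lowest was Miga1, which promotes fusion at the outer membrane, at 1.44 average log2 CPM. The highest was Mul1, a ubiquitin ligase of the outer membrane, at 32.1 CPM. March5, another ligase there, was at 4.34 and Usp30, which removes ubiquitin that Parkin attached, was at 2.96 average log2 CPM. None of the 7 reached the 5.46 of the members. Among 12 other genes of the inner membrane and its processing, the median was 4.95, from 0.76 for Chchd6 to 6.90 for Immt, which encodes the cristae junction protein mitofilin.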

How the data were processed

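RNA of TA muscle from 8 male rats, 4 Pink1-/- and 4 WT, was sorted by genotype label. RSEM and edgeR 3.9 stand in the submitters' processing notes as the authors' tools. The build, annotation, filters and normalization were not given in the sources used here. Values come from the authors' deposited table, whose log2 CPM column is an average over samples. It holds 0 columns of values per rat, so depth per library is unknown. Its columns of log2 fold change, likelihood ratio, p-value, adjusted p-value and call are the authors' own comparison and were not used. The test planned between genotypes needed values per rat and was not run, and neither was the planned level per kb, since no transcript or coding lengths were given.

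Levels were read for every gene of the lists, and CPM, ranks and percentages of entries were computed in Python 3.11.15 with numpy 2.4.6 and pandas 2.3.3, with figures in matplotlib 3.10.9. Ranks and motif counts were tested on simulated data. Named genes are the 10 members, the highest and lowest other gene of each role, direct partners of members, Pink1 and the highest marker of each cell type, with 1 marker not reported here; slow fiber markers and the provisional entries were added after values were seen. The members and lists were chosen with earlier results of these data known. Alternatives were CPM summed over entries of a symbol, CPM rescaled to a fixed total, a minimum average log2 CPM of 1, 1 entry per symbol, each role alone and, added after the data were seen, the Mff-like entry added to Mff. Promoter windows are from RefSeq, matched by symbol.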

Additional observations from a re-analysis of the deposited data

How the results depend on the processing

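With CPM rescaled to a fixed total, every level fell by 0.03 on the log2 scale and the median of the 8 genes was 5.43. CPM summed over all entries of a symbol changed none of the 8, since each had a single entry. With a minimum average log2 CPM of 1, the median percentage of entries below the 8 genes was 85.6 in place of 87.8, because fewer low entries were counted, and 7 of the 8 moved by over 1 percentage point. With 1 entry per symbol none of the 8 moved by that much. Adding the Mff-like entry took Mff from 5.59 to 5.79 average log2 CPM. The 13 other genes at or above the members' median comprised 0 fusion, 4 fission, 4 processing and 5 transport genes, and 13 again with the minimum of 1. The labels do not pair rats between genotypes, so no paired analysis was planned. Single-rat values are absent from the table, so the planned fits between genotypes were not run. These were fits with other size factors, with no filter and without each rat. The level per kb was not run for want of lengths. Without library depths, what depth limits cannot be stated.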
